A study of Mus musculus with 6 samples.

Results

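The alpha globin locus of the mouse and the genes that flank it were examined in Hi-C contact maps of embryonic stem cells. The members were the 7 genes Hba-x, Hba-a1, Hba-a2, Nprl3, Mpg, Rhbdf1 and Snrnp25 on chromosome 11 of mm10, of 20556 autosomal protein-coding genes in the gene table used. They are listed by name and position, and no measured value enters the rule, though earlier results of these data were known when they were chosen. Each gene was read from the 50 kb bin that holds its start, meaning its lower coordinate, so that the 7 genes came down to 2 bins. Snrnp25, Rhbdf1, Mpg and Nprl3 start in chr11:32200001-32250000, called the Nprl3 bin here, and the 3 globin genes in chr11:32250001-32300000, called the globin bin. All bin pairs and insulation scores from 31.2 to 33.3 Mb, a window of 42 bins, were read around them.

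In Hi-C, DNA that lies close together in fixed nuclei is joined by ligation, and the number of joined fragments between 2 bins measures their contact. Of the 6 libraries, 3 were labelled wild type (WT) and 3 GFP-CTCF-Del8 (Del8), and all came from ES cells of strain 129. The series' design text describes the cells as expressing either GFP-tagged CTCF or a CTCF without its zinc finger 8 (ZF8), in 3 biological replicates. Whether the WT libraries carry the GFP tag, whether any normal CTCF remained in the Del8 cells, and how many clones stand behind each group, no source used here gives. The nuclei were cut with MboI, whose site is GATC. Contact counts at 50 kb do not show the deletion itself or any transcript, so neither the genotype nor the labelled cell type could be checked against them.

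CTCF is a DNA-binding protein with a row of zinc fingers, and it halts the cohesin complex as cohesin extrudes loops of chromatin. Borders between domains of frequent contact commonly lie at CTCF sites. The alpha globin genes encode the alpha chains of haemoglobin and are transcribed in red cell precursors, not in embryonic stem cells. Their enhancers lie upstream of them, several in introns of Nprl3, and CTCF sites flank genes and enhancers in a small domain. Hba-x is the embryonic gene, and Hba-a1 and Hba-a2 are the adult pair. Nprl3 encodes a subunit of GATOR1, which restrains mTORC1. Mpg encodes a glycosylase that removes alkylated bases from DNA, Rhbdf1 an inactive rhomboid protein, and Snrnp25 a protein of the minor spliceosome.

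The members follow each other within 91.9 kb. Snrnp25 lies at chr11:32205415-32208996, Rhbdf1 at chr11:32209585-32222331, Mpg at chr11:32226505-32232702 and Nprl3 at chr11:32231963-32267707. Hba-x lies at chr11:32276600-32278116, Hba-a1 at chr11:32283672-32284486 and Hba-a2 at chr11:32296492-32297310. Nprl3 is read from the minus strand, so that its transcription starts in the globin bin while its body is divided about evenly between that bin and the one to the left. The theta globin gene Hbq1b shares the globin bin, and Hbq1a lies in the bin to its right.

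Promoter sequences were given by RefSeq (build GRCm38.p6) for 6 of the 7 members. The 120 bases before the start of 4 of them are shown because these 4 genes begin transcription within the one globin bin and cannot be told apart in the contact maps. Capitals mark the letters TATAA on the gene's strand and CCAAT on either strand.
Nprl3 (minus strand, chr11:32267708-32267827): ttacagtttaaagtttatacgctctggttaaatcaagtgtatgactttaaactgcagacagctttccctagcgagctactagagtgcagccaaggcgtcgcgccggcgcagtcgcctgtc
Hba-x (plus strand, chr11:32276480-32276599): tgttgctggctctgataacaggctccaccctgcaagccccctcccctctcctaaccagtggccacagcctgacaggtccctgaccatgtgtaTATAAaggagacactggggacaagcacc
Hba-a1 (plus strand, chr11:32283552-32283671): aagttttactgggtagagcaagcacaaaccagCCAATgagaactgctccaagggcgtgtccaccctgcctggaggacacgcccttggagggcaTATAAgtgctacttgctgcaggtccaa
Hba-a2 (plus strand, chr11:32296372-32296491): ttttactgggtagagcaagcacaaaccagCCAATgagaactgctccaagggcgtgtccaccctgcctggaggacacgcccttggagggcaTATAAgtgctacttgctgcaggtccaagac

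TATAA lay once in each of the 3 globin promoters of 300 bases, at -28 from the start in Hba-x, -27 in Hba-a1 and -30 in Hba-a2, and in none of the promoters of Snrnp25, Mpg and Nprl3. It was found in 17.5% of 32851 RefSeq promoters of the same length. CCAAT on either strand lay in 37.4% of them, once each in Hba-a1 and Hba-a2, 3 times in Snrnp25 and 2 times in Mpg. The promoters of Hba-a1 and Hba-a2 were the same in 297 of 297 bases once shifted by 3, whereas Hba-a1 and Hba-x matched at 29.3% of 290 bases at their best shift without gaps. Reads from such copies are hard to place, and no source used here gives how the authors treated them. GATC, the letters that MboI cuts, occurred in 47.97% of RefSeq promoters and, among the 6 of the members, in Mpg alone.

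The depth behind the values differed between libraries. The WT libraries held 24038030 to 36233407 contacts and the Del8 libraries 38088173 to 66266759. Of 47875 autosomal bins, 38.1% had lost contacts in WT replicate 1 and 38.8% in WT replicate 2, while the other libraries fell short in 1.66% to 11.9%. Both member bins were well covered throughout, at 1.33 to 1.54 times the level of well-covered bins for the Nprl3 bin and 1.11 to 1.17 times for the globin bin. The bins of the beta globin genes on chromosome 7, by contrast, had 0.112 to 0.135 of that level in WT replicates 1 and 2 and 0.440 to 0.533 in the other 4 libraries, so they were not used. In the window, 39 of 42 bins were usable in every library. Coverage of the Nprl3 bin separated the groups, since no WT library exceeded 1.41 times that of well-covered bins and no Del8 library fell below 1.44. Coverage of the globin bin overlapped between the groups.

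How much contact crosses the locus was measured by the insulation score, which takes the balanced contact between the 500 kb on one side of a bin and the 500 kb on the other and divides its mean by that of the chromosome, as log2. A low score marks a border and a higher one more contact across the bin. The clearest difference near the members lay just to their left. The bin of Il9r, the interleukin 9 receptor gene (chr11:32150001-32200000), scored -0.34, -0.30 and -0.24 in the WT libraries (replicates 1 to 3, as in all such lists), against 0.03, -0.07 and -0.08 for Del8. All 3 WT values lay below all 3 Del8 values. The score was higher in Del8 by 0.25 (SE 0.04; limma, adjusted p = 0.000946), which is 1.19 times the relative contact. Of all scored bins, 86.1% differed by less. The bin to the left of it, without a gene start (chr11:32100001-32150000), was higher by 0.24 (limma, adjusted p = 0.0043). Neighbouring bins share most of their squares, so these are not independent results. Both calls held in every alternative run, without WT replicates 1 and 2 included, except the looser screen of bins (limma, adjusted p = 0.244 for each).

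At the members themselves the difference was smaller. The Nprl3 bin scored -0.19, -0.14 and -0.07 in WT against -0.00024, -0.07 and -0.03 in Del8. The groups overlapped at their ends, since Del8 replicate 2 lay just below WT replicate 3. Its score was higher in Del8 by 0.10 (SE 0.04; limma, adjusted p = 0.0455), 1.07 times the relative contact. This call rested on single libraries: leaving out WT replicate 1 or 2, or Del8 replicate 1, 2 or 3, each ended it (limma, adjusted p = 0.0509 to 0.148), and without both WT replicates 1 and 2 the difference was 0.04 (adjusted p = 0.445). The globin bin scored -0.10, -0.07 and -0.08 in WT and -0.02, -0.01 and -0.03 in Del8, with no overlap of the groups. Its difference of 0.06 (SE 0.02) missed the threshold of 0.05 (limma, adjusted p = 0.0502). Against all scored bins neither value stood out, since 44.2% of bins differed by less than the Nprl3 bin and 29.2% by less than the globin bin. With a square of 250 kb the difference was 0.02 at the Nprl3 bin and -0.02 at the globin bin, and neither passed.

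**Figure D1:**
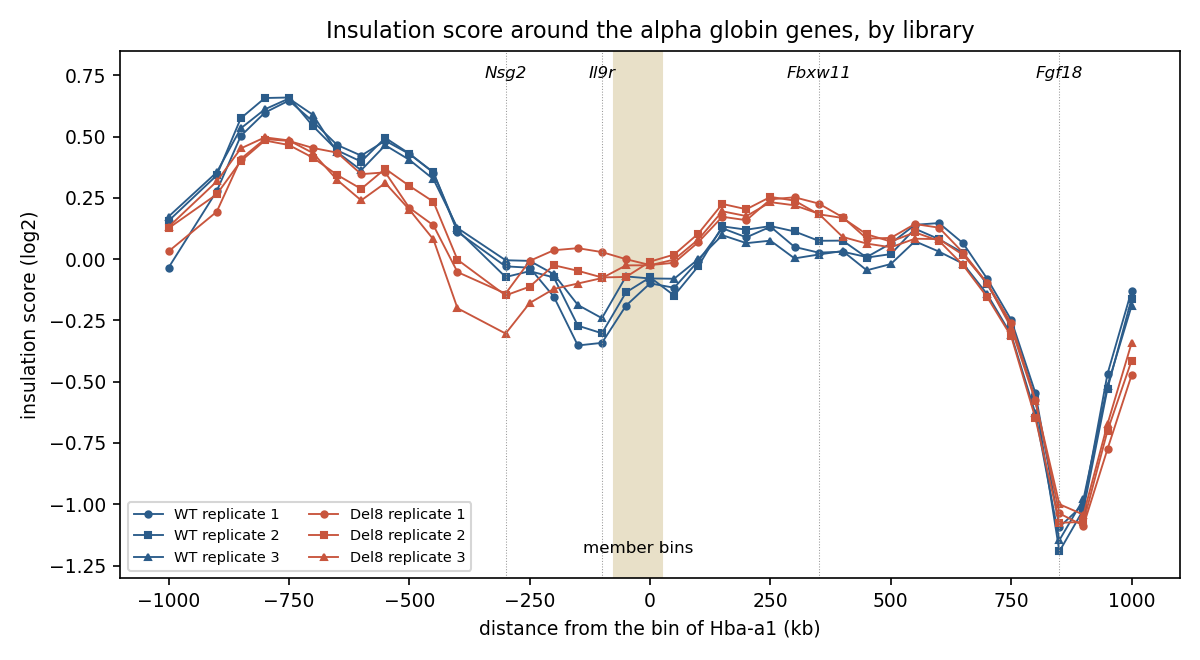
Insulation score (log2, y axis) of every scored 50 kb bin against the distance of the bin from that of Hba-a1 (kb, x axis), 1 line per library, WT in blue and Del8 in red, with marker shapes for replicates 1 to 3 and the 2 member bins shaded. To the left of the shading, at Il9r, the 3 WT lines dip to between -0.34 and -0.24 and the 3 Del8 lines run between -0.08 and 0.03.

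The place of the dip beside the locus differed as well. Averaged over the 6 libraries, 36.1% of all scored bins scored lower than the Il9r bin, so in that average the dip was not a deep one. Within 500 kb of the member bins the lowest score of WT replicate 1 lay at chr11:32100001-32150000 (-0.35) and that of WT replicates 2 and 3 at the Il9r bin (-0.30 and -0.24). In all 3 Del8 libraries it lay farther left, in the bin where Nsg2 and 4930524B15Rik start (chr11:31950001-32000000), at -0.14, -0.15 and -0.30. Nsg2 encodes a membrane protein of neuronal endosomes. Its body runs from 31999704 to 32059211, so that nearly all of it lies in the next bins to the right. The mean position moved by -183 kb, to the left, with no overlap (exact permutation test, two-sided, p = 0.10, which is as low as 3 against 3 can give; the measure was chosen after the profiles were seen). The Nsg2 bin itself scored -0.03, -0.07 and -0.0045 in WT and fell by 0.16 in Del8 (SE 0.05; limma, adjusted p = 0.0163). The bins at 32000001 and 32050001, which hold nearly all of the gene, did not pass (-0.07 and 0.06; limma, adjusted p = 0.195 and 0.275). From unbalanced contact the fall at the bin where Nsg2 starts was -0.03 and did not pass (limma, adjusted p = 0.58). The shift of the lowest score depended on the setting. With the looser screen of bins the groups still did not overlap (-150 kb, exact permutation test, p = 0.10). With a square of 250 kb the lowest score of WT replicate 3 and Del8 replicate 2 lay at chr11:32700001-32750000 instead, and from unbalanced contact the 3 Del8 libraries had their lowest score in 3 different bins.

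Over the window, 13 bins scored higher in Del8, 12 lower, and 14 did not pass. Over the autosomes, 31.0% of 22620 scored bins were higher and 27.7% lower, so that a called bin is common anywhere. The calls were not spread evenly along the window. Of the 17 scored bins left of the members, 2 were higher and 10 lower. Of the 20 to their right, 10 were higher and 2 lower. Neighbouring bins share most of their squares, so these counts are not of independent bins. The totals over the window depend on the scaling, with 7 higher and 14 lower once each library was centred on its median score and 8 higher and 13 lower from unbalanced contact. Of the 25 protein-coding genes that start in the window, 12 lay in higher bins, 6 in lower bins and 7 in bins that did not pass. The median difference over the window was -0.0082, against 0.0053 over all bins.

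Of the local minima of the profile, that of Fgf18, a fibroblast growth factor gene (chr11:33100001-33150000), was the deepest, 850 kb to the right of the globin bin. It scored -1.09, -1.19 and -1.15 in WT against -1.04, -1.08 and -0.9997 in Del8. The difference there was 0.11 (SE 0.03; limma, adjusted p = 0.0278), but it reversed with a square of 1 Mb (-0.16) and from unbalanced contact (-0.09). The minima at Bod1, a gene of chromosome attachment in mitosis, and at Ubtd2, a gene of a ubiquitin-like protein, were shallow dips in stretches of high score. Bod1 fell by 0.10 (limma, adjusted p = 0.0296) and Ubtd2 rose by 0.09 (limma, adjusted p = 0.0243). A minimum without a gene start at chr11:32700001-32750000 rose by 0.09 (limma, adjusted p = 0.0195). The call at Bod1 was lost without WT replicate 1 or 2 or Del8 replicate 2 or 3. That at Ubtd2 was lost without WT replicate 3 or Del8 replicate 2 or 3, that at 32700001 without Del8 replicate 1 or 2, and that at Fgf18 without WT replicate 2 or Del8 replicate 1 or 3. Other settings ended these calls too. Ubtd2 did not pass with the 250 kb square (0.031; limma, adjusted p = 0.635), from unbalanced contact (adjusted p = 0.053) or after centring (adjusted p = 0.0785). The bin at 32700001 did not pass with the 1 Mb square (0.014; limma, adjusted p = 0.521) or after centring (adjusted p = 0.064). Bod1 did not pass with the 250 kb square or the 1 Mb square (limma, adjusted p = 0.174 and 0.4), nor Fgf18 after centring (adjusted p = 0.0691). With the looser screen none of these 4 bins passed.

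The 3 largest falls of score in the window lay at its right end and at Cpeb4. The bin at chr11:33250001-33300000, without a gene start, fell by 0.25 (limma, adjusted p = 0.000793). The neighbouring bin of Tlx3, a homeobox gene, and Ranbp17, a gene of a nuclear transport receptor, fell by 0.21 (limma, adjusted p = 0.00112), with -0.50 ± 0.03 for WT and -0.72 ± 0.05 for Del8 (SD, n = 3). To the left of the members, the bin of Cpeb4, whose protein binds messenger RNA tails, fell by 0.20 (limma, adjusted p = 0.00675), from 0.12 ± 0.01 to -0.09 ± 0.10 (SD, n = 3). The third largest rise, after those at and beside Il9r, lay at chr11:32550001-32600000 within the body of Stk10, at 0.18 (limma, adjusted p = 0.00201). None of these 4 bins lay next to a member bin. With a square of 250 kb the difference at Tlx3 was 0.05 and that at chr11:33250001-33300000 -0.13, and from unbalanced contact that at Cpeb4 was -0.09; none of these passed.

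Single contacts of the members were tested next, as counts of bin pairs against the count expected for the library, the chromosome and the distance. Of the 75 pairs of a member bin within the window, 62 had a mean count of 10 or more and were tested. More contact in Del8 was called for 3 of them and less for 0 (edgeR's quasi-likelihood test, adjusted p under 0.05), while at an unadjusted p under 0.05 there were 10 and 3. DESeq2 called 1 and 0. Over all 344458 autosomal pairs 0.612% were called higher and 0.537% lower. The median log2 fold change was 0.16 over the 62 pairs, 0.04 over the 441 pairs tested in the window and -0.0025 over all pairs. All 3 calls belonged to the Nprl3 bin and reached leftward over the Il9r dip. These pairs are part of the square behind the score of the Il9r bin, so they and its rise are not independent results.

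The partners of the Nprl3 bin in these 3 pairs were the 3 neighbouring bins that the gene Nsg2 touches, from chr11:31950001-32000000 to chr11:32050001-32100000. With the first of them, 250 kb away, the Nprl3 bin had 18, 15 and 17 contacts in WT and 81, 58 and 62 in Del8. Divided by the expected count, these were 0.681, 0.535 and 0.497 in WT against 1.27, 1.30 and 1.62 in Del8. The WT libraries thus had less contact than the distance predicts and the Del8 libraries more, with no overlap. Bin coverage was not corrected for here. That of the Nprl3 bin was higher in every Del8 library than in any WT library, whereas that of the globin bin overlapped. The contrast in calls between these bins therefore runs along a difference in coverage, whose part in it was not tested. With offsets that hold bin weights the log2 fold change of this pair was 1.15 (edgeR, adjusted p = 0.00658). The rise was 2.44-fold (log2 fold change 1.29, SE 0.24; edgeR, adjusted p = 0.00284). This pair was called in every alternative run on 50 kb bins, leaving out each library included (log2 fold change 1.15 to 1.47; adjusted p 0.000331 to 0.0313).

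With the second bin, 200 kb away, the counts of the Nprl3 bin were 23, 15 and 38 in WT and 103, 76 and 51 in Del8, or 0.702, 0.433 and 0.920 against 1.35, 1.42 and 1.10 of the expected count. The rise was 1.86-fold (log2 fold change 0.90, SE 0.22; edgeR, adjusted p = 0.0281). It was not called without WT replicate 1 or 2, without Del8 replicate 1 or 2, with offsets that hold bin weights (adjusted p = 0.0924), or with DESeq2 (adjusted p = 0.0867); over all its alternatives the adjusted p ran from 0.00447 to 0.515. Without both WT replicates 1 and 2 its log2 fold change was 0.50 (edgeR, adjusted p = 0.515). With the third bin, 150 kb away, the counts were 39, 30 and 49 in WT and 126, 102 and 76 in Del8, or 0.938, 0.689 and 0.946 against 1.33, 1.55 and 1.33 of the expected count. That rise was 1.63-fold (log2 fold change 0.70, SE 0.18; edgeR, adjusted p = 0.0324). It ranks the sixth among the members' pairs and is described because it passed the threshold. Without WT replicate 2, Del8 replicate 1 or Del8 replicate 2, 1 of the 3 calls was left. With offsets that hold bin weights 1 was left as well, that with the bin where Nsg2 starts.

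**Figure D2:**
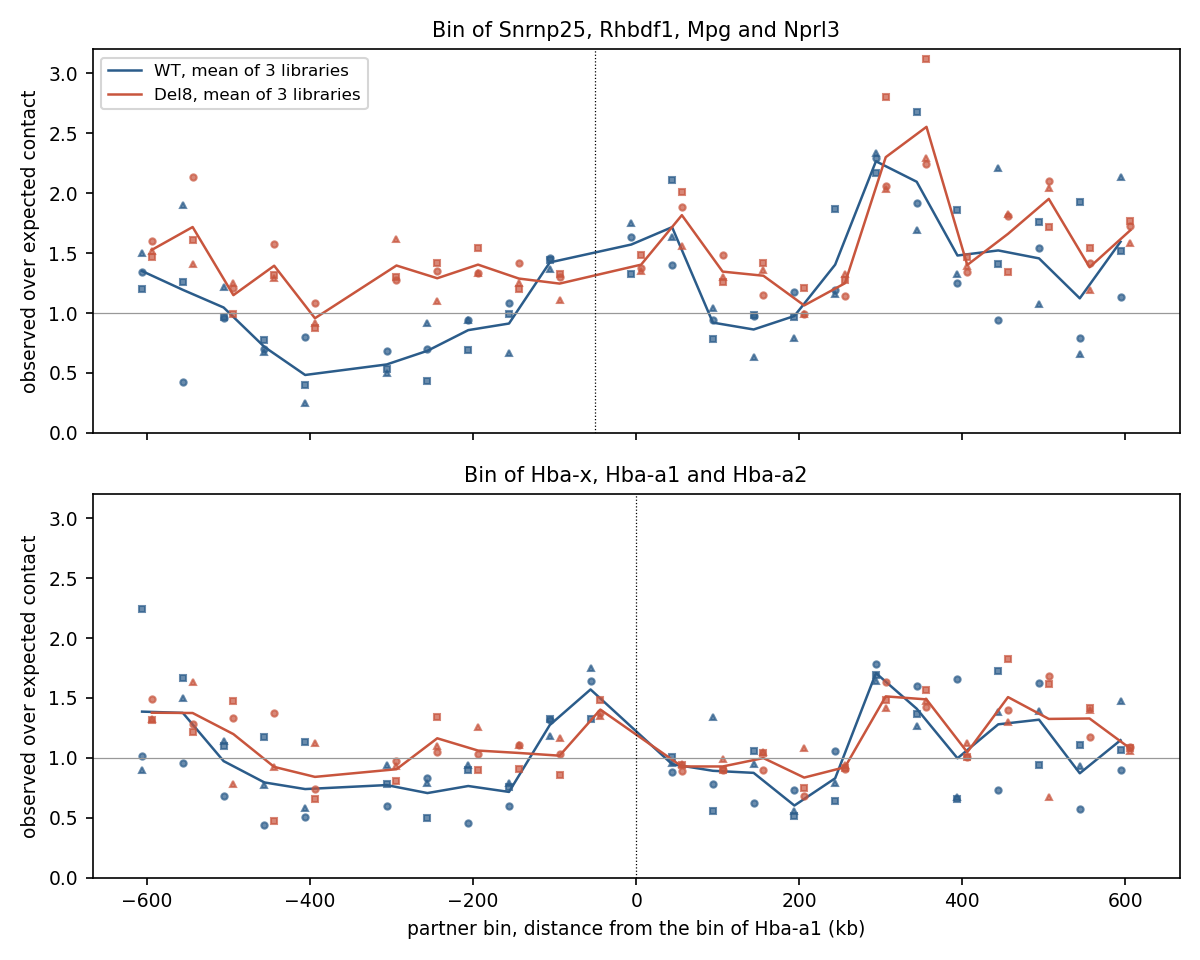
Observed over expected contact (y axis) of the Nprl3 bin (upper panel) and the globin bin (lower panel) with every usable bin up to 600 kb from the bin of Hba-a1 (x axis, kb), WT in blue and Del8 in red, lines for the mean of 3 libraries and points for single libraries. In the upper panel the red points lie above the blue ones from -300 to -150 kb, while in the lower panel the colours mix over most of the range.

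Farther left the Nprl3 bin had 2 other large differences, neither of which passed. With the bin of Cpeb4, 350 kb away, it had 15, 8 and 6 contacts in WT and 51, 29 and 26 in Del8 (log2 fold change 1.05, SE 0.34; edgeR, adjusted p = 0.109). With chr11:31800001-31850000 it had 11, 13 and 14 in WT and 64, 38 and 32 in Del8 (log2 fold change 0.97, SE 0.28; edgeR, adjusted p = 0.0701). In both pairs the observed over expected contact of every Del8 library was above that of every WT library. Uncalled pairs with less contact in Del8 separated too, that of the Nprl3 bin with the bin of Npm1 among them. The share of all tested pairs that separate was not computed, so for no pair here is separation shown to be particular. Of the 9 pairs tested between the Nprl3 bin and the 500 kb to its left, 8 had a log2 fold change above 0, with a median of 0.70. Of the 10 pairs with the 500 kb to the right of the globin bin, 8 were above 0, with a median of 0.11.

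Summed over the 500 kb to the left, the contact of the Nprl3 bin was -0.31, -0.47 and -0.42 in WT against -0.06, -0.15 and -0.15 in Del8, on a log2 scale over the expected contact. The WT libraries were all lower than the Del8 libraries. The difference of 0.28 is 1.22-fold, at the smallest p the design allows (two-sided exact permutation test, p = 0.10; chosen after the pair tests were seen). Among 1607 positions of chromosome 11, 20.5% were higher in Del8 without overlap in the same measure. Toward the right the groups overlapped, with a difference of 0.10 (exact permutation test, p = 0.30).

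The globin bin, which holds Hba-x, Hba-a1 and Hba-a2, had 0 called pairs of 29 tested (edgeR), with 2 higher and 2 lower at an unadjusted p under 0.05 and 0 calls by DESeq2. Its largest rise was also with the second of the Nsg2 bins, at 250 kb, where it had 22, 14 and 27 contacts in WT and 67, 60 and 42 in Del8. As a share of the expected count these were 0.833, 0.499 and 0.789 in WT and 1.05, 1.34 and 1.10 in Del8, without overlap (log2 fold change 0.70, SE 0.24; edgeR, adjusted p = 0.139). With the bin where Nsg2 starts, at which the Nprl3 bin rose most, it had 13, 18 and 27 contacts in WT and 53, 31 and 31 in Del8. Here the observed over expected contact overlapped between the groups (log2 fold change 0.21, SE 0.27; edgeR, adjusted p = 0.78). Of the 9 pairs tested to its left 7 were above 0, with a median log2 fold change of 0.26, and of the 10 to its right 8, with a median of 0.09.

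The 2 member bins were not shown to differ in this leftward contact. Summed over the 500 kb, the globin bin was higher in Del8 by 0.19 with overlapping groups (-0.44, -0.04 and -0.09 in WT; 0.05, -0.12 and 0.08 in Del8; exact permutation test, p = 0.30). The difference between the changes of the 2 bins was 0.09 (exact permutation test, p = 0.70), and without WT replicate 2 it was -0.03.

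Among the nearest pairs none passed the test. The 2 member bins had 182, 153 and 216 contacts with each other in WT and 329, 246 and 196 in Del8. The body of Nprl3 is divided between these bins, and the enhancers in its introns were not placed. The pair can therefore not be read as contact of enhancers with globin genes. Against the expected count these were 1.64, 1.33 and 1.75 in WT and 1.38, 1.48 and 1.35 in Del8, which overlap (log2 fold change -0.17, SE 0.10; edgeR, adjusted p = 0.492). In every library the raw count of the pair was above its expectation. The Il9r bin had 1.46, 1.44 and 1.37 times the expected contact with the Nprl3 bin in WT and 1.30, 1.33 and 1.11 in Del8, lower without overlap but not past the threshold (log2 fold change -0.18; edgeR, adjusted p = 0.439). It had 1.31, 1.33 and 1.18 times the expected contact with the globin bin in WT and 1.03, 0.855 and 1.17 in Del8 (log2 fold change -0.32; edgeR, adjusted p = 0.308).

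The bin of Hbq1a and Sh3pxd2b, which encodes a scaffold of podosomes, lies just right of the globin bin. Its contact was 0.882, 1.01 and 0.955 of the expected count with the globin bin in WT against 0.895, 0.940 and 0.952 in Del8 (log2 fold change -0.03; edgeR, adjusted p = 0.933). With the Nprl3 bin it was 1.40, 2.11 and 1.63 in WT against 1.88, 2.01 and 1.56 in Del8 (log2 fold change 0.09; edgeR, adjusted p = 0.813). Across the globin genes, then, contact of the Nprl3 bin with its second neighbour was above the expected count in all 6 libraries, with bin coverage not corrected for. The pair of the Nprl3 bin with chr11:32100001-32150000 had a log2 fold change of 0.53 (SE 0.16; edgeR, adjusted p = 0.0843) and passed only without WT replicate 1 (adjusted p = 0.04998) and without both WT replicates 1 and 2 (adjusted p = 0.0292), among the alternatives run. The pair of the globin bin with chr11:32350001-32400000 had a log2 fold change of 0.02 (SE 0.19; edgeR, adjusted p = 0.976), whose sign changed with the setting.

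The largest falls among the members' pairs were with distant bins on the right, and none passed. The Nprl3 bin met the bin of Fgf18, at the deep border, at 3.48, 5.31 and 4.46 times the expected count in WT and at 2.90, 2.91 and 3.31 times in Del8. These came from 16, 26 and 29 contacts in WT and 37, 27 and 26 in Del8, with no overlap in observed over expected contact (log2 fold change -0.55, SE 0.27; edgeR, adjusted p = 0.339). With the bin of Npm1, the gene of nucleophosmin, the fold change was -0.81 on the log2 scale (10, 11 and 11 contacts in WT; 17, 8 and 10 in Del8; edgeR, adjusted p = 0.369). With the bin of Tlx3 and Ranbp17 it was -0.29 (edgeR, adjusted p = 0.815). The globin bin had 21, 18 and 18 contacts with chr11:32950001-33000000 in WT and 33, 16 and 16 in Del8 (log2 fold change -0.76, SE 0.31; edgeR, adjusted p = 0.232). The globin bin met the Fgf18 bin at 3.15, 1.503 and 2.67 times the expected count in WT and at 1.95, 2.12 and 2.92 times in Del8. Both member bins were thus above the expected count with that border in all 6 libraries, with bin coverage not corrected for.

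**Figure D3:**
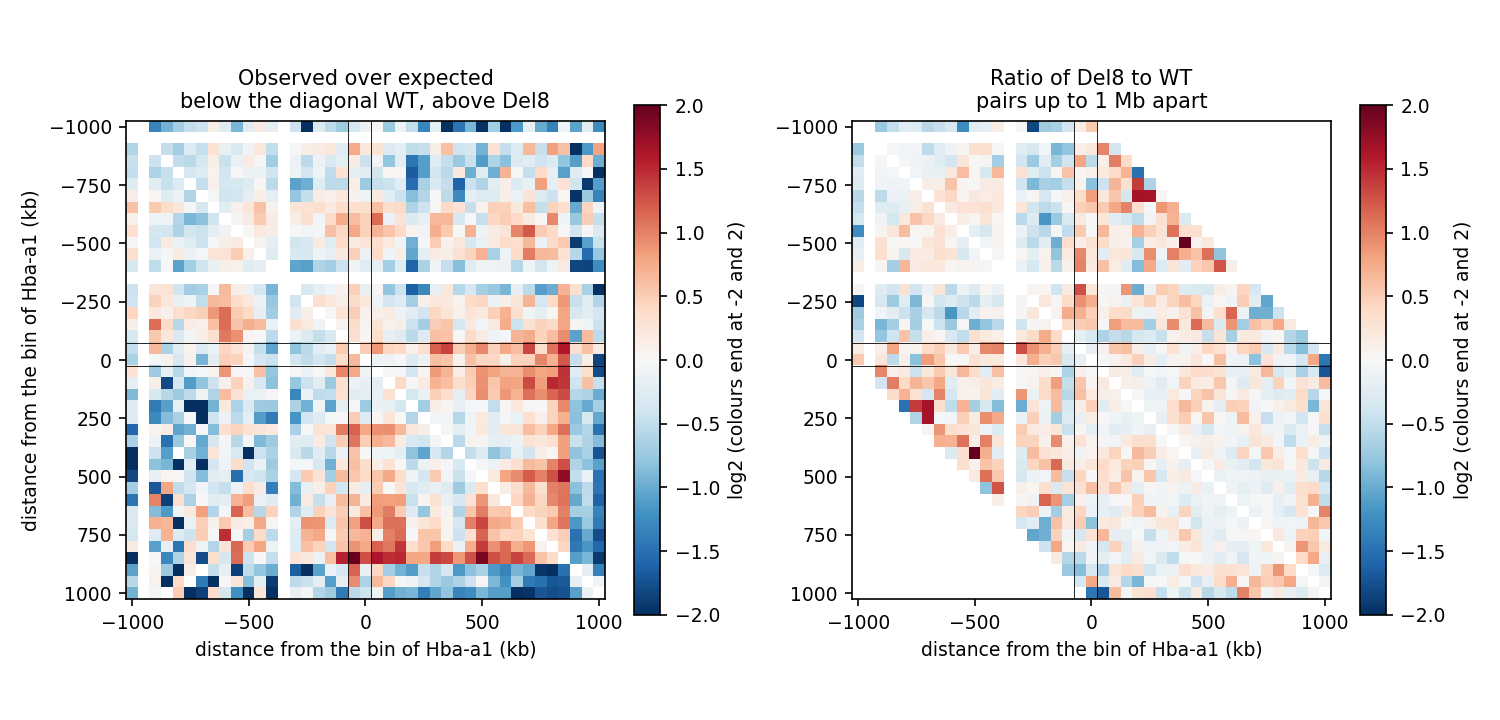
Contact between the usable 50 kb bins of the window, both axes giving the distance from the bin of Hba-a1 (kb) and thin lines bounding the 2 member bins. In the left panel the colour is log2 of observed over expected contact, WT below and Del8 above the diagonal, with the strong contact of the member bins with Fgf18 at 850 kb; in the right panel it is log2 of Del8 over WT, red where the Nprl3 bin meets the bins at -300 to -200 kb.

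Other pairs of the window that passed are given because they border the locus, and were picked for having passed. In the whole window 4 pairs were higher and 4 lower of 441 tested (edgeR), or 4 and 2 with TMM factors and 2 and 4 with offsets that hold bin weights. The Il9r bin gained contact with the third of the Nsg2 bins, from 33, 49 and 51 contacts in WT to 177, 88 and 93 in Del8 (log2 fold change 0.76, SE 0.17; edgeR, adjusted p = 0.0134). On its other side it lost contact with the bin of Hbq1a and Sh3pxd2b. That pair, which spans both member bins, had 88, 95 and 83 contacts in WT and 124, 70 and 83 in Del8, or 2.12, 2.18 and 1.60 against 1.31, 1.06 and 1.46 times the expected count (log2 fold change -0.61, SE 0.15; edgeR, adjusted p = 0.0277). In WT the Il9r bin was thus below its expected contact with the third Nsg2 bin and above it with that of Hbq1a, while in Del8 it was at or above it on both sides.

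The other 3 pairs with less contact in Del8 lay left of Il9r. The bin of Bod1 lost contact with the third Nsg2 bin (log2 fold change -1.14, SE 0.24; edgeR, adjusted p = 0.00911), from 1.72, 2.38 and 2.42 times the expected count in WT to 1.28, 0.693 and 0.927 in Del8. The pair of chr11:31750001-31800000 with chr11:32100001-32150000 fell by 0.95 on the log2 scale (edgeR, adjusted p = 0.04). That of chr11:31250001-31300000 with chr11:31700001-31750000 fell by 1.23 (edgeR, adjusted p = 0.0481). Without WT replicate 2, 0 losses were called in the window, and without any 1 of the other libraries 1 or 2 were. Gains numbered 1 without Del8 replicate 1, and 2 without WT replicate 2, Del8 replicate 2 or Del8 replicate 3.

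**Figure D4:**
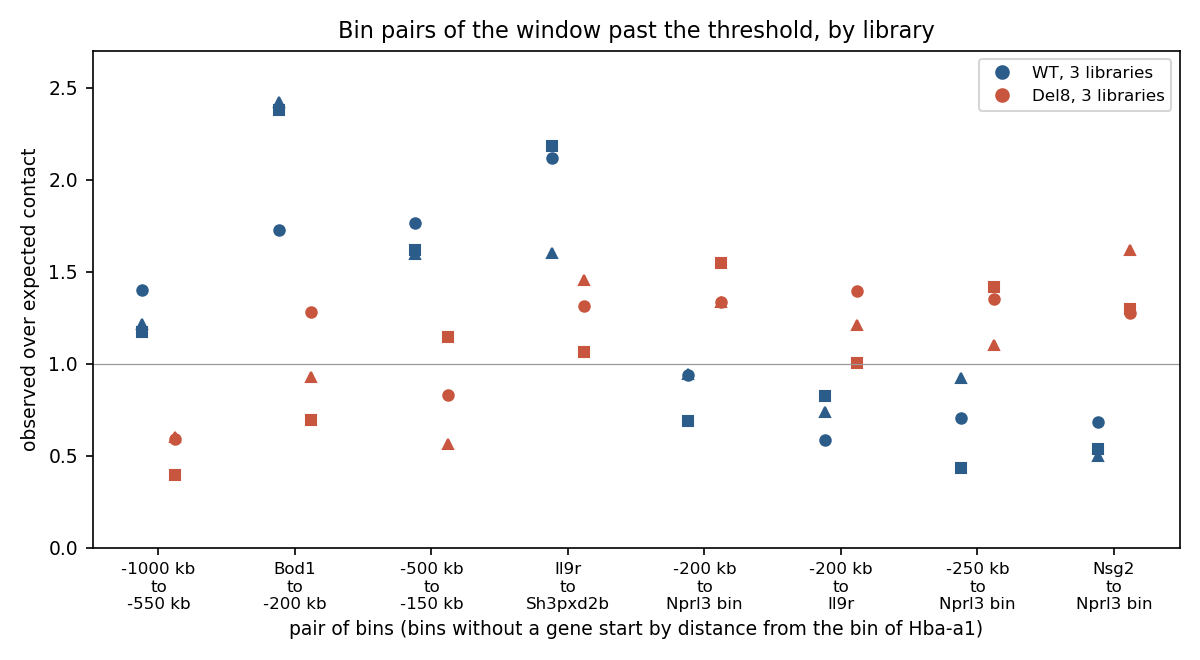
Observed over expected contact (y axis) of the 8 bin pairs of the window past the threshold (x axis, bins named by gene or by distance from the bin of Hba-a1 in kb), 1 point per library, WT in blue and Del8 in red. The 4 pairs on the right rose, 3 of them with the Nprl3 bin. The pair of the bin where Nsg2 starts with the Nprl3 bin lay between 0.497 and 0.681 in WT and between 1.27 and 1.62 in Del8.

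Values over the whole locus were compared with 1 number per library, with p adjusted over 6 such values. Contact between the 500 kb left and the 500 kb right of the member bins, on a log2 scale over the expected contact, was -0.19, -0.22 and -0.15 in WT against -0.08, -0.11 and -0.10 in Del8. The Del8 libraries were all higher, by 0.09 in the mean (exact permutation test, p = 0.10, the smallest possible; adjusted p = 0.2), and 39.0% of 1607 positions of chromosome 11 were higher without overlap in the same measure. Over 250 kb on either side the difference reversed, to -0.06. The members' contacts with partners inside the window made up 67.3%, 67.2% and 63.8% of their contacts within the chromosome in WT and 72.2%, 71.5% and 72.5% in Del8 (exact permutation test, p = 0.10; adjusted p = 0.2). This rise of 5.96 percentage points is set against a median of 2.72 over chromosome 11, where 36.8% of positions were higher without overlap.

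Of the remaining 4 values of the locus, coverage separated the groups and the other 3 did not. For coverage the share of chromosome 11 positions that separate in the same way was not computed. Its separation is therefore not shown to be particular to the locus. Coverage of the member bins was 1.17, 1.19 and 1.203 times the chromosome's median in WT against 1.26, 1.26 and 1.23 in Del8, without overlap (exact permutation test, p = 0.10; adjusted p = 0.2). Balanced contact of the 2 member bins with each other was 0.32, -0.04 and 0.37 in WT against -0.08, 0.01 and -0.09 in Del8 on the log2 scale (exact permutation test, p = 0.20). The bias of their contacts to the right over the left was 0.18, 0.14 and 0.13 in WT against -0.09, 0.15 and -0.01 in Del8 (exact permutation test, p = 0.30). Contact with gene-dense over gene-free bins at 5 Mb or more, a measure of the active compartment, was -0.69, 0.32 and 0.77 in WT against -0.23, -0.16 and -0.07 in Del8 (exact permutation test, p = 0.60). The range of the WT values held all 3 Del8 values, and without WT replicate 3 the sign reversed, at 0.03.

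Other genes of red cells were read from the same scores, with a list of beta and theta globins, erythroid transcription factors, red cell membrane proteins and enzymes of haem synthesis. Of 41 listed genes, 38 were in the gene table and 28 lay in scored bins. Among these, 15 bins were higher in Del8, 4 lower and 9 did not pass (limma), where 31.0% of all scored bins were higher and 27.7% lower. The median difference was 0.10, against 0.0053 over all scored bins. Those include bins without a gene start, and shares over all gene bins of the autosomes were not computed. With a square of 250 kb, 12 of the list's bins were higher and 4 lower. The largest rises were at Gfi1b, a repressor of erythroid and megakaryocyte genes, at 0.47, at Nfe2, a factor that acts on globin enhancers, at 0.42, and at Epb41, the gene of membrane skeleton protein 4.1, at 0.42 (limma, adjusted p = 9.99e-05, 7.39e-05 and 0.000178). The largest falls were at Ank1, the ankyrin gene, at -0.24, at Tfrc, the transferrin receptor gene, at -0.18, and at Urod, an enzyme of haem synthesis, at -0.17 (limma, adjusted p = 0.000153, 0.000749 and 0.00206). The difference at the globin bin was smaller than any of these 6. Of the list's alpha-like genes, Hbq1a lay in a bin that rose by 0.12 (limma, adjusted p = 0.00807), and Hbq1b shared the globin bin.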

How the data were processed

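The Hi-C of 6 libraries used MboI and in-situ ligation, per the labels' protocols. For each library the authors deposited 1 table of raw counts, contacts between 50 kb bins of one chromosome, on mm10 (per the submitters' processing notes). Read filters, aligner and counting tool were not given in the sources used here. Gene positions and promoters came from RefSeq tables of GRCm38.p6, the same assembly.

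The members and gene lists, and the screen of bins, were chosen with earlier results of these data known. The screen kept 28215 of 47875 autosomal bins, those whose coverage, scaled to well-covered bins, reached 0.5 of the third highest library and 0.1 of the library's own scale in all 6 libraries. Each chromosome's map was balanced (iterative correction, diagonal left out). Insulation scores (500 kb square, at least 50% usable) of 22620 bins were fitted with limma 3.58.1 on group alone. Bin pairs from 50 kb to 2 Mb apart with a mean count of 10 or more were fitted with edgeR 4.0.16 (quasi-likelihood) with offsets of the expected count, in R 4.3.3, and with DESeq2 1.42.0 as an alternative. Adjusted p is Benjamini-Hochberg over all bins or all pairs. Both fits were run on simulated data, with noise drawn independently for each bin or pair. The simulated noise was not shared between neighbouring bins, so these runs do not test the calls under shared squares. For single values an exact permutation test was used, two-sided. Replicates are those of the titles; that they came from separate cultures is said only as "biological", so p measures the spread between these samples.

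No library was a copy of another, since in the coverage of bins every pair differed by more than sampling noise (1.65 or more as chi-square over degrees of freedom). By that measure WT replicate 3 lay nearer to the Del8 libraries (2.50 to 2.84) than to WT replicates 1 and 2 (5.77 and 6.21).

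Named were all members, genes at local minima of the profile, the 3 largest rises and falls of score in the window, each member bin's 2 nearest bins on either side and its 5 largest rises and falls among tested pairs, and in the erythroid list the 3 largest rises and falls. Alternatives were other squares, screens, balancing, centring, offsets, bin sizes and filters, DESeq2, a replicate block and leaving out libraries. Added after the data were seen were the place of the lowest score and the summed contact of each member bin. Genes that the table places below 3 Mb on a chromosome were left out, Hbb-b1 and Hbb-b2 among them, as was Ahsp, which it does not list.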

Additional observations from a re-analysis of the deposited data

How the results depend on the processing

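The causes of the changes below were not tested. The 2 member bins kept a higher insulation score in Del8 in every alternative but one, the 250 kb square, where the globin bin was at -0.017. With the looser screen, however, WT replicates 1 and 2 scored far below the other libraries at the Il9r and Nsg2 bins. At Il9r the scores were -1.67, -2.07 and -0.34 in WT and -0.04, -0.13 and -0.15 in Del8. Differences with that screen are therefore not read as changes of single bins. The Nprl3 bin did not pass with the 250 kb square (0.016), the looser screen (1.02), centring on the median (0.076), without WT replicates 1 and 2 (0.038), or in 5 of the 6 fits that left out 1 library (0.070 to 0.13 over all 6, the highest being the one that passed). The globin bin passed with the 1 Mb square (0.083) and from unbalanced contact (0.16). Window bins higher in Del8, 13 in the fit reported, numbered 0 with the looser screen, 8 from unbalanced contact, 7 after centring and 8 to 11 with 1 library left out. Lower bins, 12 in that fit, numbered 6 with the 250 kb square and 0 with the looser screen. Window pairs with more contact numbered 2 with bin weights, 2 with DESeq2, 6 of 147 with 100 kb bins and 1 to 4 with 1 library left out. Those with less contact numbered 2 with TMM factors, 1 with DESeq2, 2 of 147 with 100 kb bins, 1 without WT replicates 1 and 2, and 0 to 2 with 1 library left out. Members' pairs with more contact numbered 1 with bin weights, 1 with DESeq2 and 1 to 4 with 1 library left out.

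Signs reversed as follows. Contact across the members was -0.063 over 250 kb on either side. Contact of the 2 member bins with each other was 0.37 and far contact 0.56 with the looser screen, and far contact ran from -0.70 to 0.030 with 1 library left out. The difference of the 2 bins in leftward contact ran from -0.025 to 0.26. With the looser screen, to which the same limit applies, Bod1 was at 0.52, Nsg2 at 1.07, Tlx3 at 0.88 and chr11:33250001-33300000 at 0.86. With the 250 kb square Bod1 was at 0.089 and Tlx3 at 0.051. Fgf18 was at -0.16 with the 1 Mb square and -0.094 from unbalanced contact, where chr11:32700001-32750000 was at -0.0057. The globin bin's pair with Hbq1a ran from -0.083 to 0.0094 with 1 library left out. Its pair with chr11:32350001-32400000 was at -0.044 with TMM factors, -0.54 without WT replicates 1 and 2 and from -0.23 to 0.48 with 1 library left out. The Nprl3 bin's pair with Hbq1a was at -0.014 with bin weights and from -0.025 to 0.26 with 1 library left out.

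Same-numbered WT and Del8 libraries did not deviate together (correlations -0.10, -0.03 and -0.18), so the numbers were not taken as pairs. With the replicate block, the Nprl3 bin kept its difference of 0.10 but not the call (limma, adjusted p = 0.0649), 2 window pairs were higher and 2 lower, and 1 of the members' pairs was called. The pair of the Nprl3 bin with chr11:32000001-32050000 lost its call there (edgeR, adjusted p = 0.0542).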
